A study of Mus musculus with 12 samples.

Results

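The genes of the mitochondrial ribosomal proteins were followed in Myc-CaP cells and tumors exposed to YJ1206. Members were taken by symbol, as every gene named Mrpl or Mrps with a number and at most 1 letter after it, which gave 78 of the 34507 genes present in both tables. Of these, 49 are Mrpl genes (large subunit) and 29 are Mrps genes (small subunit). The 6 pseudogenes whose symbols end in -ps and 5 subunits with unrelated names, such as Dap3, were kept apart. Myc-CaP is a mouse prostate carcinoma line that carries a human MYC transgene under a prostate promoter. YJ1206 is a proteolysis-targeting chimera that brings the transcription kinases CDK12 and CDK13 to degradation and thus acts on the proteins, not the genes. In the first experiment, 3 cultures received DMSO and 3 received YJ1206 at 1 μM for 24 hours. The other experiment used Myc-CaP tumors grown under the skin of male FVB mice, 3 tumors after vehicle and 3 after oral YJ1206 (100 mg/kg on 3 days of each week). No gene was deleted in any of the 4 groups.

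The mitochondrial ribosome translates the 13 mRNAs encoded by mitochondrial DNA, all of which specify membrane subunits of the respiratory chain and ATP synthase. Its ribosomal RNAs come from mitochondrial DNA, whereas all of its proteins are encoded in the nucleus, made in the cytosol and imported, so the subunits are built from 2 genomes. Some of the proteins have counterparts in the bacterial ribosome and others are found only in mitochondria. Promoters of such genes are known for sites of ETS factors (the GABP complex among them), NRF1 and YY1, and MYC is known to act on many of them.

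The cell libraries held 13936902 to 18519926 counts on genes and the tumor libraries 15391544 to 26928365, and all 78 members passed the filter on low counts in both experiments, so none was lost to depth. The labels number the DMSO and YJ1206 cell libraries in different ranges, and a library batch cannot be told apart from treatment there. Replicates were close in cells and wide in tumors: the common biological coefficient of variation was 0.0322 and 0.139. Genes of at least 5 CPM in which tumor libraries 1 and 2 of a group differed by at least 0.5 on the log2 scale were examined. Library 3 lay between these 2 for 97.2% (vehicle) and 95.9% (YJ1206) of them. The other choices of library gave 11.9% to 37.6%, so tumor counts are also given without library 3. Among the 78 members, without a condition on the difference, it lay between for 37 in vehicle and 33 in YJ1206 tumors. In DMSO and YJ1206 cells this held for 30 and 23 members. Whether library 3 is independent of the other 2 was not tested, and the n of 3, the SEs and the adjusted p-values of every tumor result rest on its being so. The epithelial markers Epcam and Cldn7 were at 0 in all cell libraries. Skeletal muscle markers summed to 24.2 to 753 CPM in vehicle tumors and 10.7 to 12.1 CPM in YJ1206 tumors, and proliferation markers to 2003 to 2154 CPM and 469 to 927 CPM, and their part in the tumor results was not tested.

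In control cells the members spanned a wide range of transcript levels. On the TPM scale, which is per transcript length and allows genes to be set side by side within a table, the median member stood at 62.5 TPM in DMSO cells and at 47.6 TPM in vehicle tumors, above 78.6% and 77.5% of the tested genes. Mrpl33, a small protein of the large subunit shared with bacteria, was highest in both (356 ± 16.7 TPM in DMSO cells and 328 ± 13.6 in vehicle tumors, SD, n = 3). Mrps21 (354 TPM), Mrpl52 (274 TPM) and Mrpl42 (272 TPM) followed in DMSO cells. Mrpl47 was lowest in both, at 8.84 and 8.05 TPM, so the highest and lowest members differed 40.2-fold in cells and 40.7-fold in tumors although the ribosome holds its proteins in near equal number. The order of the members was much the same in the 2 materials (Spearman rho 0.94 over 78 members between DMSO cells and vehicle tumors, as a description across genes that share libraries). It was kept less closely after YJ1206 in cells (rho 0.86 against DMSO) than in tumors (rho 0.98 against vehicle).

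In cells, YJ1206 moved the members in both directions. Of the 78, 35 (44.9%) rose and 20 (25.6%) fell at an edgeR adjusted p under 0.05, and 23 did not pass. This has to be read against a large response of the whole transcriptome, in which 76.1% of the 11826 tested genes were called, 37.8% higher and 38.3% lower. The median log2 fold change was 0.11 over the members and -0.02 over all tested genes, and the members spread less (SD 0.55 against 0.88). Changes of at least 2-fold were called for 7 members, 4 of them upward, against 18.3% of all tested genes. The groups did not overlap for 37 members upward and 19 downward (38.4% and 39.2% of all tested genes).

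**Figure D1:**
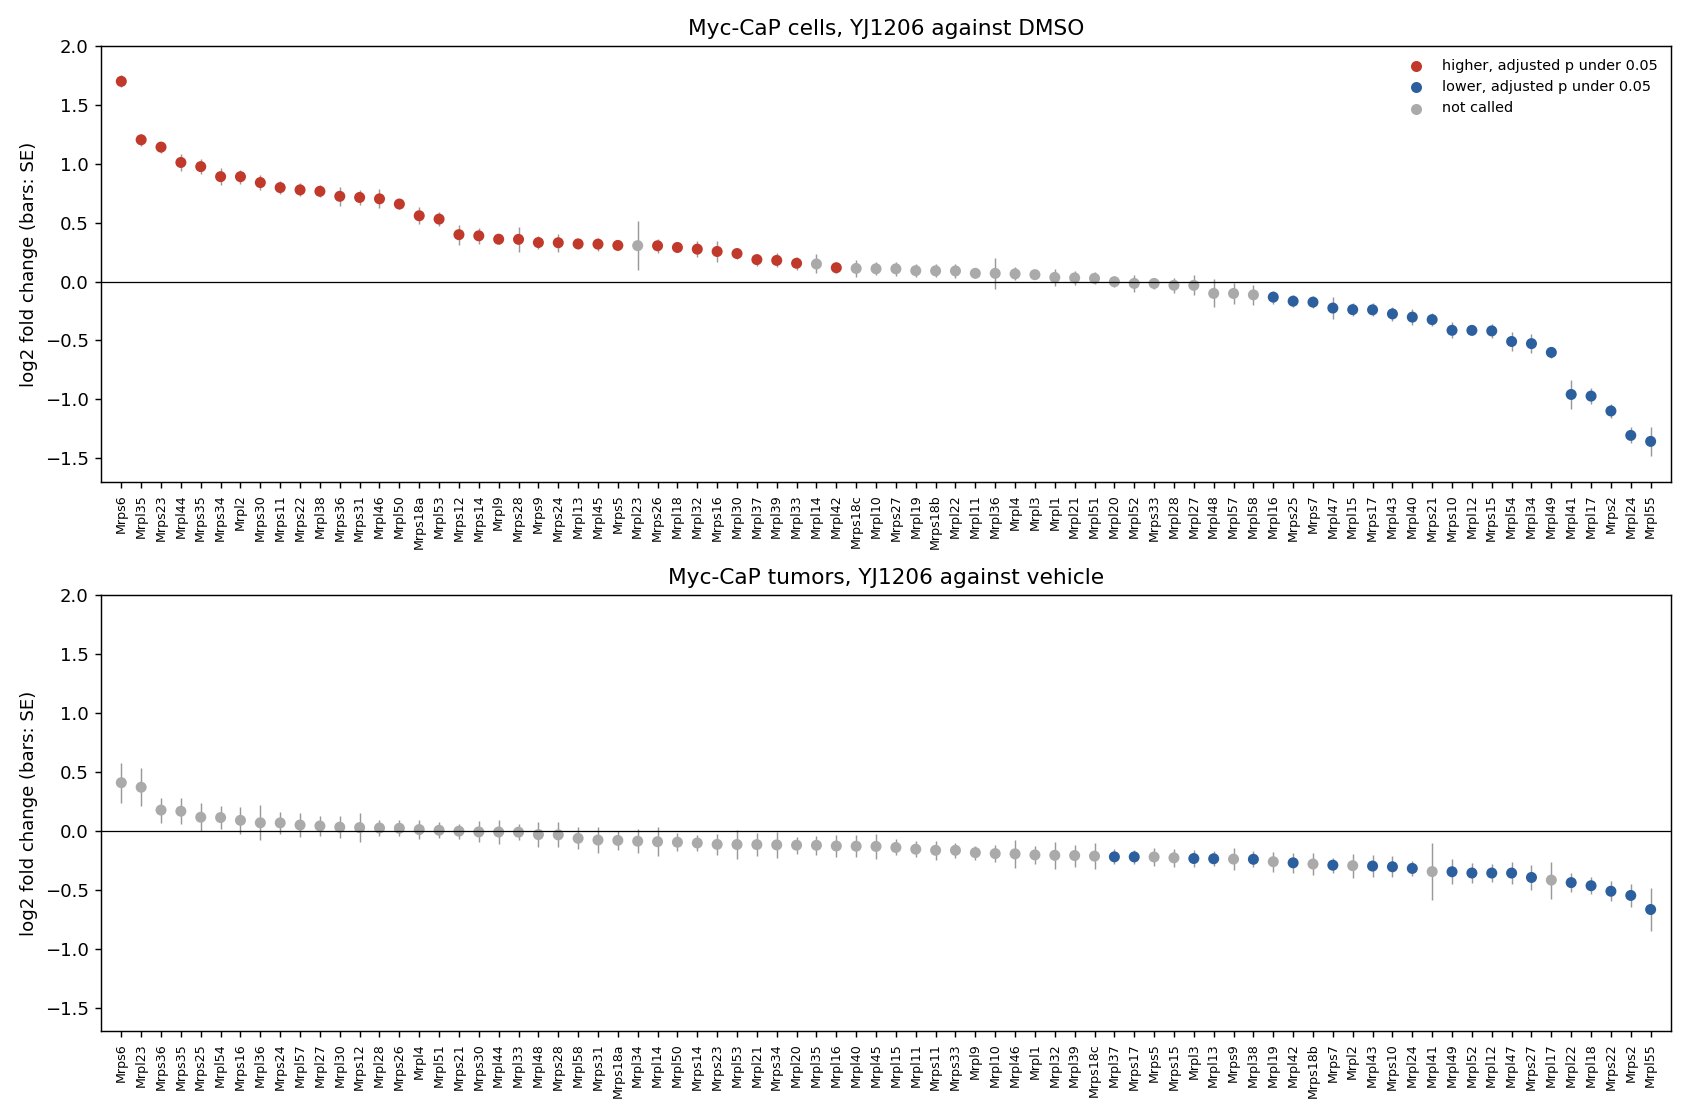
Log2 fold change (y axis) of each of the 78 members, ordered from highest to lowest, with its SE as a bar, in cells (top) and tumors (bottom). Red points are called higher, blue lower and grey not called. In cells 35 points are red and 20 blue. In tumors none is red and 20 are blue, and the whole range is narrower.

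The small subunit rose more often than the large one. Among the 29 Mrps genes 18 rose and 7 fell, with a median of 0.33. Among the 49 Mrpl genes 17 rose and 13 fell, with a median of 0.07. Mrps30 and Mrps18a are built into the large subunit in spite of their names, and with them moved there the small subunit held 16 risers and 7 fallers of 27. Members with a bacterial counterpart (46 genes, 17 higher and 14 lower, median 0.08) and those without one (32 genes, 18 higher and 6 lower, median 0.18) both held changes in each direction. No test was made of these differences.

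The 4 members Mrps6, Mrpl35, Mrps23 and Mrpl44 rose at least 2-fold in cells. Mrps6, the counterpart of bacterial S6 in the small-subunit platform, stood at 29.3, 31.4 and 28.2 CPM (counts per 1000000 after TMM scaling) in DMSO cells and at 98.05, 97.7 and 92.7 CPM after YJ1206, a log2 fold change of 1.70 ± 0.05 (SE; edgeR adjusted p = 6.42e-21). Mrpl35, a large-subunit protein shared with bacteria, went from 35.2, 33.4 and 32.6 to 79.0, 77.2 and 76.9 CPM (1.20 ± 0.05; adjusted p = 8.36e-18). Mrps23, a protein of the small subunit with no bacterial counterpart, went from 45.2, 43.1 and 41.0 to 97.1, 94.0 and 94.1 CPM (1.14 ± 0.05; adjusted p = 5.73e-18). For these 3 genes the lowest YJ1206 library lay far above the highest DMSO library. Mrpl44, a large-subunit protein with a ribonuclease III-like fold, went from 19.0, 17.9 and 20.1 to 35.5, 42.0 and 37.5 CPM (1.01 ± 0.07; adjusted p = 1.78e-12). Mrps6 shares 305 exon bases with Gm49711 and 159 with Slc5a3, both on the same strand, and Mrpl44 shares 126 with Wdfy1 on the opposite strand, whereas Mrpl35 and Mrps23 overlap no other annotated exon. In build GRCm38 with GENCODE vM21, these genes span chr16:92058270-92112227 (Mrps6, plus strand), chr6:71812997-71826969 (Mrpl35, minus strand), chr11:88204388-88211507 (Mrps23, plus strand) and chr1:79776018-79781445 (Mrpl44, plus strand).

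The 4 members with the largest decreases in cells were Mrpl55, Mrpl24, Mrps2 and Mrpl17, which all have bacterial counterparts. Mrpl55 fell from 12.5, 13.8 and 13.3 CPM in DMSO cells to 5.65, 4.45 and 5.31 CPM (log2 fold change -1.36 ± 0.12; edgeR adjusted p = 1.03e-10). Mrpl24, which lines the region of the exit tunnel in bacteria, fell from 53.7, 54.1 and 53.8 to 24.3, 21.7 and 19.2 CPM (-1.31 ± 0.07; adjusted p = 7.05e-16), with 594 of its exon bases shared with Rrnad1 on the opposite strand. Mrps2, the counterpart of bacterial S2 on the back of the small subunit, fell from 52.3, 51.0 and 51.5 to 25.6, 24.2 and 22.5 CPM (-1.10 ± 0.06; adjusted p = 4.55e-15). Mrpl17 fell from 41.1, 44.2 and 44.8 to 21.7, 22.6 and 22.0 CPM (-0.97 ± 0.07; adjusted p = 1.98e-13). In each of the 4, all YJ1206 libraries lay below all DMSO libraries with a wide gap. They span chr11:59202486-59206134 (Mrpl55, plus strand), chr3:87919506-87923672 (Mrpl24, plus strand), chr2:28468066-28471178 (Mrps2, plus strand) and chr7:105803206-105811099 (Mrpl17, minus strand). All 8 of these genes kept their direction and call in the 13 other settings tried for the cells.

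**Figure D2:**
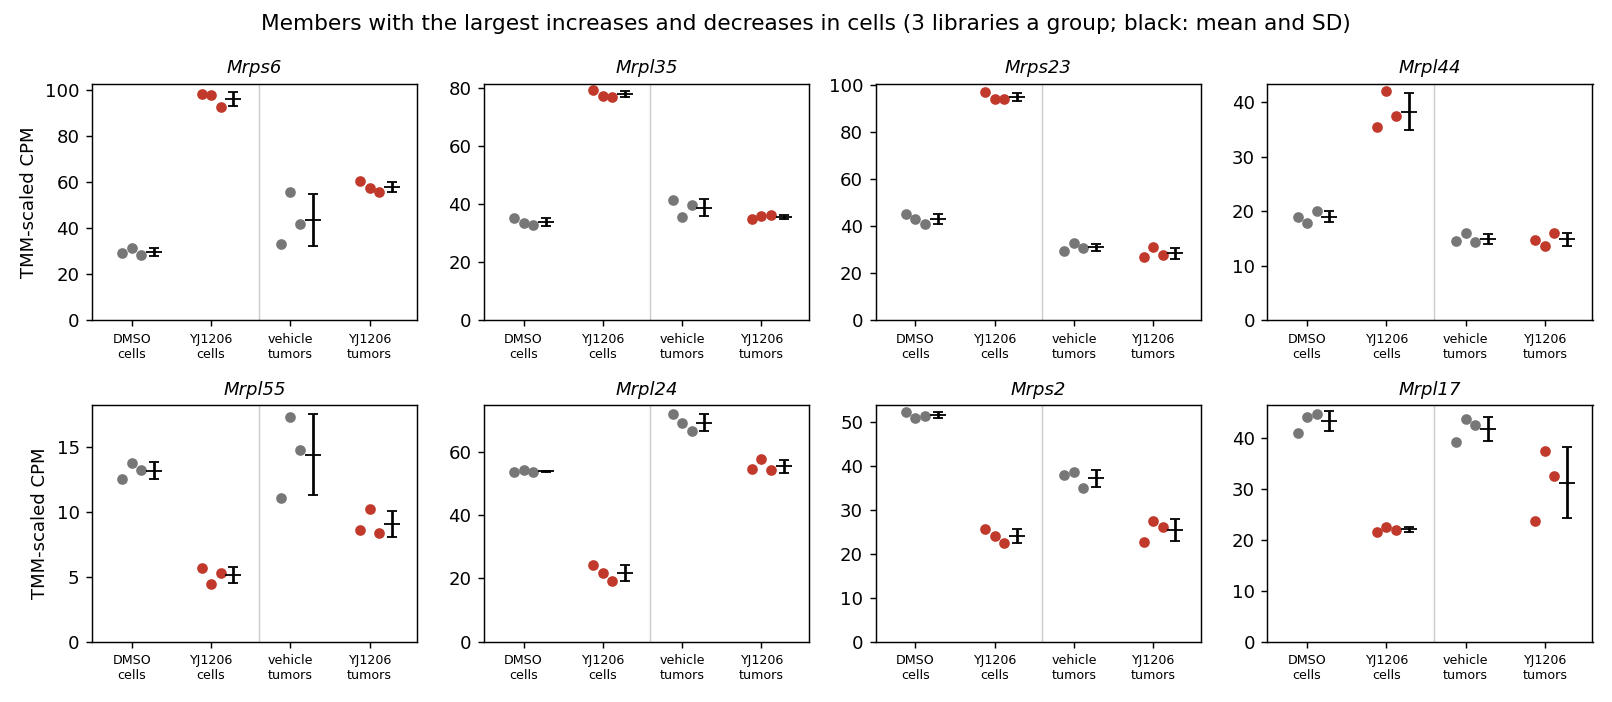
TMM-scaled CPM (y axis, from 0) in each library of the 4 groups for the members with the largest increases (top row) and decreases (bottom row) in cells. Points are single libraries and black marks are the mean and SD of 3 libraries. DMSO and YJ1206 cells are far apart in all 8 panels. Vehicle and YJ1206 tumors overlap for Mrpl35, Mrps23 and Mrpl44 and do not overlap in the bottom row.

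The other risers included Mrps35 (0.98), Mrps34 (0.89), Mrpl2 (0.89), Mrps30 (0.84), Mrps11 (0.80), Mrps31 (0.71), Mrpl46 (0.70), Mrpl50 (0.66) and Mrpl53 (0.53), each given as its log2 fold change and listed after the values were seen. Mrps36 also rose (0.72), and its protein is now mostly described as a part of the 2-oxoglutarate dehydrogenase complex and not of the ribosome. The other fallers included Mrpl41 (-0.96), Mrpl49 (-0.60), Mrpl34 (-0.53), Mrpl54 (-0.51), Mrps15 (-0.42), Mrpl12 (-0.41) and Mrps10 (-0.41). Mrpl12, the stalk protein of the large subunit, fell while its stalk partner Mrpl10 did not pass the test (0.11). The paralogs Mrps18a, Mrps18b and Mrps18c stood at 0.56, 0.09 and 0.11, and of these Mrps18a passed. Mrpl58, which releases peptides from stalled ribosomes, stood at -0.11 and did not pass. These contrasts depend on the scale. On log2(TPM + 1) with limma, Mrpl10 (-0.20), Mrps18b (-0.31), Mrps18c (-0.16) and Mrpl58 (-0.51) were called lower. Mrpl12 stayed lower there (-0.73) and Mrps18a higher (0.20). Mrpl58 was also called lower on total counts without TMM (-0.30).

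The balance of risers and fallers in cells depended on the scale. On total counts without TMM the count was 25 higher and 32 lower, with a member median of -0.08 against -0.20 over all tested genes. On the deposited TPM, as log2(TPM + 1) with limma, it was 17 higher and 43 lower, with a median of -0.20 against -0.24. The share of member calls that were upward was thus 63.6%, 43.9% and 28.3% on the 3 scales, against 49.7%, 36.1% and 29.2% for all calls. Relative to the median of all tested genes, the member median was higher by 0.13 on TMM and on total counts and by 0.04 on TPM, and 53, 53 and 44 of the 78 members lay above it. Of the 55 members called on TMM-scaled counts, 45 kept call and direction on total counts and 37 on TPM, where 11 changed sign and 3 of those were called the other way.

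The sum over all 78 genes showed the same dependence. Their summed TPM was 6422, 6502 and 6480 in DMSO cells and 5652, 5734 and 5658 in YJ1206 cells, a change of -12.2%. Their share of all counts was 0.340% ± 0.0016 and 0.339% ± 0.0031 (SD, n = 3), and the 2 groups overlapped. On TMM-scaled CPM the sum went from 3193 ± 22.1 to 3624 ± 43.6, by 13.5%. In tumors the 3 scales went one way: summed TPM was 4936, 5017 and 4916 in vehicle and 4290, 4386 and 4284 in YJ1206 tumors (-12.8%), and the share of counts (-10.1%) and summed CPM (-9.99%) were lower too. The exact permutation test of 3 against 3 libraries allows no p below 0.1 for such a sum and was not used.

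**Figure D3:**
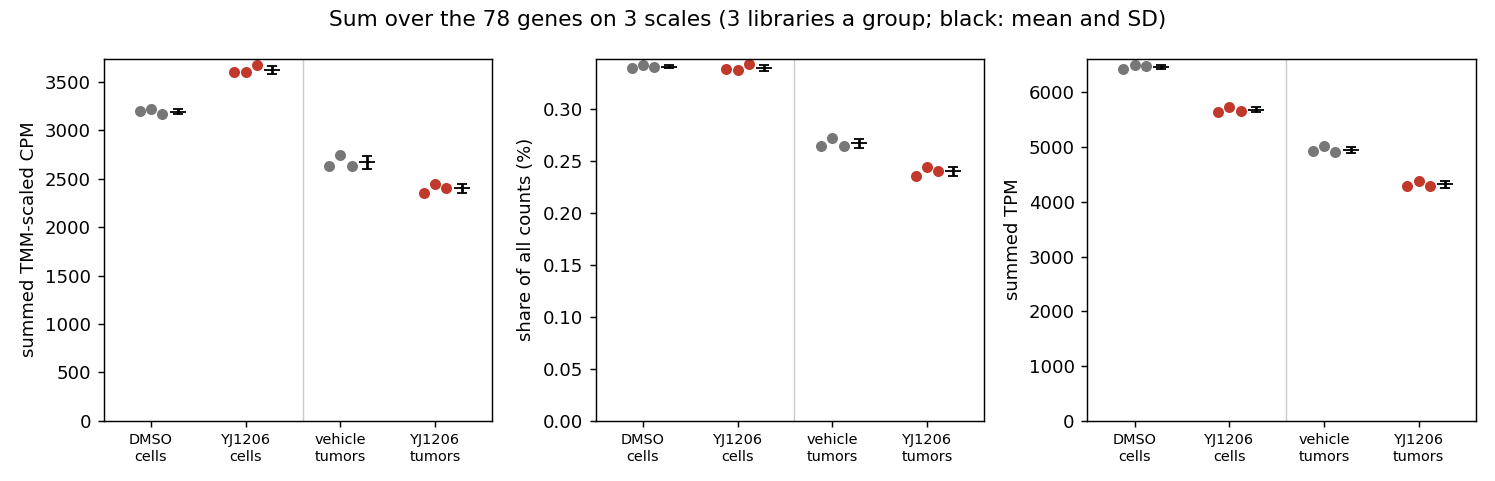
Sum over the 78 genes in each library (y axes from 0) as TMM-scaled CPM, as a percentage of all counts and as TPM. Points are libraries and black marks the mean and SD of 3. For the cells the sum is higher after YJ1206 on the first scale, overlaps on the second and is lower on the third, and for the tumors it is lower on all 3.

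RefSeq promoters (250 bases before to 50 after the start, build GRCm38.p6) were held for 69 of the 78 members. The letters CCGGAAG (an ETS core, read on both strands, as are the others) were present in 26 of these promoters (37.7%), against 21.8% of those of protein-coding genes tested in cells and 9.93% of all promoters in the table. AAGATGG, a part of the YY1 motif, was present in 13 (18.8%, against 8.74% and 7.28%), GCGCATG, a part of the NRF1 motif, in 8 (11.6%, against 8.51% and 4.41%) and CACGTG, the E-box bound by MYC and other factors, in 5 (7.25%, against 12.03% and 8.09%). CCGGAAG stood in 9 of the 30 held promoters of members that rose in cells, in 4 of 18 of those that fell there and in 7 of 18 of those that fell in tumors. These are matches of letters and not measured sites. The promoters below belong to 2 members that rose in cells (Mrps6 and Mrps23), 2 that fell there (Mrpl55 and Mrpl17) and 2 called in opposite directions in cells and tumors (Mrps22 and Mrpl18). Each is written 5' to 3' on the strand of its gene, with any match to the 4 letter strings in capitals.
Mrps6, chr16:92058086-92058385, plus strand: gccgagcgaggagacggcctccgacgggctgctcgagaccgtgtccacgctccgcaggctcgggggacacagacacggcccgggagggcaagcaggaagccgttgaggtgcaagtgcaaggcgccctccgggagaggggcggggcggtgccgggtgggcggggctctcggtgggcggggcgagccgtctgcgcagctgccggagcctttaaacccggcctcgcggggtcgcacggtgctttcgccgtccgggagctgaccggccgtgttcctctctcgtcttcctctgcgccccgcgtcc
Mrps23, chr11:88204138-88204437, plus strand: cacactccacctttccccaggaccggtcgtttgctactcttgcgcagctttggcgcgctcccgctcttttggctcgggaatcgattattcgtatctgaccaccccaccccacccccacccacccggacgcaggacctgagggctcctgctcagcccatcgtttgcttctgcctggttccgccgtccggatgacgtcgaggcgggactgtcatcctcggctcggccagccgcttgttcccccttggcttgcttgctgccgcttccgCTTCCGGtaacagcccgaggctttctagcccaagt
Mrpl55, chr11:59202236-59202535, plus strand: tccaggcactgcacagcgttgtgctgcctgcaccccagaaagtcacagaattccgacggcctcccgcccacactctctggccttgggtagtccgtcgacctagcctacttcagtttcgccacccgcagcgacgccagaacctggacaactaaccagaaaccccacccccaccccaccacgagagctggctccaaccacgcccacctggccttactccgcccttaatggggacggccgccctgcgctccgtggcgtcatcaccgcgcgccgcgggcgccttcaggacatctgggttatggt
Mrpl17, chr7:105811038-105811337, minus strand: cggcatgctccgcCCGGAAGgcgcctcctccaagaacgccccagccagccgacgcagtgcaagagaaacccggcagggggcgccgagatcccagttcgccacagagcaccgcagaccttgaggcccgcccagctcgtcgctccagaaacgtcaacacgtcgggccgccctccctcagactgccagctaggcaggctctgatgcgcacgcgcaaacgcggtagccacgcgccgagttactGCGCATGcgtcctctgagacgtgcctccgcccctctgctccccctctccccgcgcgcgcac
Mrps22, chr9:98601630-98601929, minus strand: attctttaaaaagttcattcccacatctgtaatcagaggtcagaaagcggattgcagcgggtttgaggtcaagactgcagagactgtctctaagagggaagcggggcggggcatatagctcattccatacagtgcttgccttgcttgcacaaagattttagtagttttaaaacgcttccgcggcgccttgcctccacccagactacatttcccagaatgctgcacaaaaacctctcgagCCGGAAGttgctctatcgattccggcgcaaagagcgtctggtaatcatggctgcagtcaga
Mrpl18, chr17:12916042-12916341, minus strand: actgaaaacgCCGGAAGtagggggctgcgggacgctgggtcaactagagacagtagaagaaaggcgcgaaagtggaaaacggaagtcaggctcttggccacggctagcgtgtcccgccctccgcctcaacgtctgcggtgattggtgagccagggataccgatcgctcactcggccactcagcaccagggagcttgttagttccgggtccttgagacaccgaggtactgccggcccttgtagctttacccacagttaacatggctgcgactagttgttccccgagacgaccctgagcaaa
Mrps6 and Mrpl55, at the upper and lower end of the response in cells, held none of the 4. Mrps23, Mrpl17, Mrps22 and Mrpl18 each held CCGGAAG, at position 15 relative to the start in Mrps23, at -11 in Mrps22, at -237 in Mrpl17 and at -240 in Mrpl18. In Mrpl17 GCGCATG also stood at -11.

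In tumors the members moved less and downward. None rose and 20 (25.6%) fell at an edgeR adjusted p under 0.05, against 11.9% higher and 14.9% lower of the 15558 tested genes (26.8% called in all), and 58 did not pass. At an unadjusted p under 0.05 there were 33 members. The median log2 fold change was -0.14 over the members and 0.01 over all tested genes, 61 members had a value below 0, and no member changed 2-fold. In 36 members all YJ1206 tumors lay below all vehicle tumors and in 2 above (22.8% and 21.8% of all tested genes). The fallers were 14 Mrpl and 6 Mrps genes, with medians of -0.16 and -0.12 for all members of the 2 kinds. In bulk tumors, fewer cells of a type and less RNA per cell cannot be told apart.

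The 4 members with the largest decreases in tumors were Mrpl55, Mrps2, Mrps22 and Mrpl18. Mrpl55 stood at 11.1, 17.3 and 14.8 CPM in vehicle tumors and at 8.63, 10.2 and 8.35 CPM after YJ1206 (log2 fold change -0.67 ± 0.18 SE; edgeR adjusted p = 0.0314). Mrps2 went from 37.9, 38.7 and 35.1 to 22.7, 27.4 and 26.2 CPM (-0.55 ± 0.09; adjusted p = 0.00641). The groups did not overlap in either gene, though for Mrpl55 the lowest vehicle tumor lay close to the highest treated one. Mrps22, a mitochondria-specific small-subunit protein whose loss disturbs assembly of that subunit, went from 31.3, 29.5 and 34.1 to 22.0, 23.0 and 21.4 CPM (-0.51 ± 0.09; adjusted p = 0.00594). Mrpl18, a protein of the central protuberance, went from 45.7, 47.5 and 49.4 to 32.8, 35.9 and 34.5 CPM (-0.47 ± 0.07; adjusted p = 0.00421). Mrps22 spans chr9:98588730-98601660 and Mrpl18 chr17:12911349-12916345, both on the minus strand. Mrpl52, among the 4 highest by TPM, also fell (-0.36 ± 0.08; adjusted p = 0.0177), whereas Mrpl33 (-0.01 ± 0.07) and Mrps21 (-0.003 ± 0.065) did not pass.

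These tumor calls rest on few libraries. With 1 library left out in turn, 5 to 18 members were called lower, and only Mrps22, Mrps2, Mrpl18 and Mrpl22 were called in each of the 6 reduced fits. The count was lowest without YJ1206 library 3 (5 members) and vehicle library 3 (6), and without vehicle library 2 Mrps6 was called higher. With libraries 1 and 2 of each group alone no member was called by edgeR, 9 had an unadjusted p under 0.05 and 1 of 15684 genes was called at all, while the member median stayed at -0.16. DESeq2 on all 6 libraries gave 20 members lower, and limma on TPM gave 27.

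Of the 35 members that rose in cells, 6 fell in tumors and 29 did not pass there. Of the 20 that fell in cells, 10 fell in tumors. These 10 were Mrpl55, Mrpl24, Mrps2, Mrpl49, Mrpl12, Mrps10, Mrpl43, Mrps17, Mrpl47 and Mrps7. Another 4 fell in tumors alone (Mrps27, Mrpl22, Mrpl3 and Mrpl52), and 19 passed in neither. The shares of all tested genes with the same pairs of calls are not given here. Whether these counts depart from those of other genes was therefore not tested. Of all genes tested in tumors, 14.9% were called lower. That share is taken whatever the call in cells, so it is not a measure for the pairs. Across the 78 members the log2 fold changes of the 2 experiments, which share no libraries, had a Spearman rho of 0.31 and a Pearson r of 0.45, given as a description across genes.

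The 6 members called in opposite directions were Mrps22, Mrpl38, Mrpl18, Mrpl13, Mrpl37 and Mrpl42. Mrps22 stood at 38.2, 40.1 and 39.0 CPM in DMSO cells and at 66.8, 71.4 and 63.1 CPM in YJ1206 cells (log2 fold change 0.78 ± 0.05 SE; edgeR adjusted p = 4.36e-13), against its decrease in tumors. Mrpl38, a large-subunit protein found only in mitochondria, went from 52.3, 56.7 and 51.3 to 89.0, 85.2 and 98.4 CPM in cells (0.77 ± 0.05) and from 43.1, 43.6 and 42.5 to 34.6, 37.2 and 37.5 CPM in tumors (-0.24 ± 0.07; adjusted p = 0.0343). Neither gene had overlapping groups in either experiment. With 1 library left out in turn, the fall in tumors was called in all 6 fits for Mrps22 and Mrpl18. It was called in 2 of the 6 for Mrpl13 and in 1 of the 6 each for Mrpl38, Mrpl37 and Mrpl42. Mrpl18 (0.29 in cells), Mrpl13 (0.32), Mrpl37 (0.19) and Mrpl42 (0.12) rose less in cells and fell by 0.47, 0.24, 0.22 and 0.27 on the log2 scale in tumors. Their rise in cells does not hold on the TPM scale, where Mrpl18, Mrpl13 and Mrpl37 lay between -0.13 and -0.01 and did not pass and Mrpl42 was called lower (-0.24), while Mrps22 (0.45) and Mrpl38 (0.44) stayed higher.

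**Figure D4:**
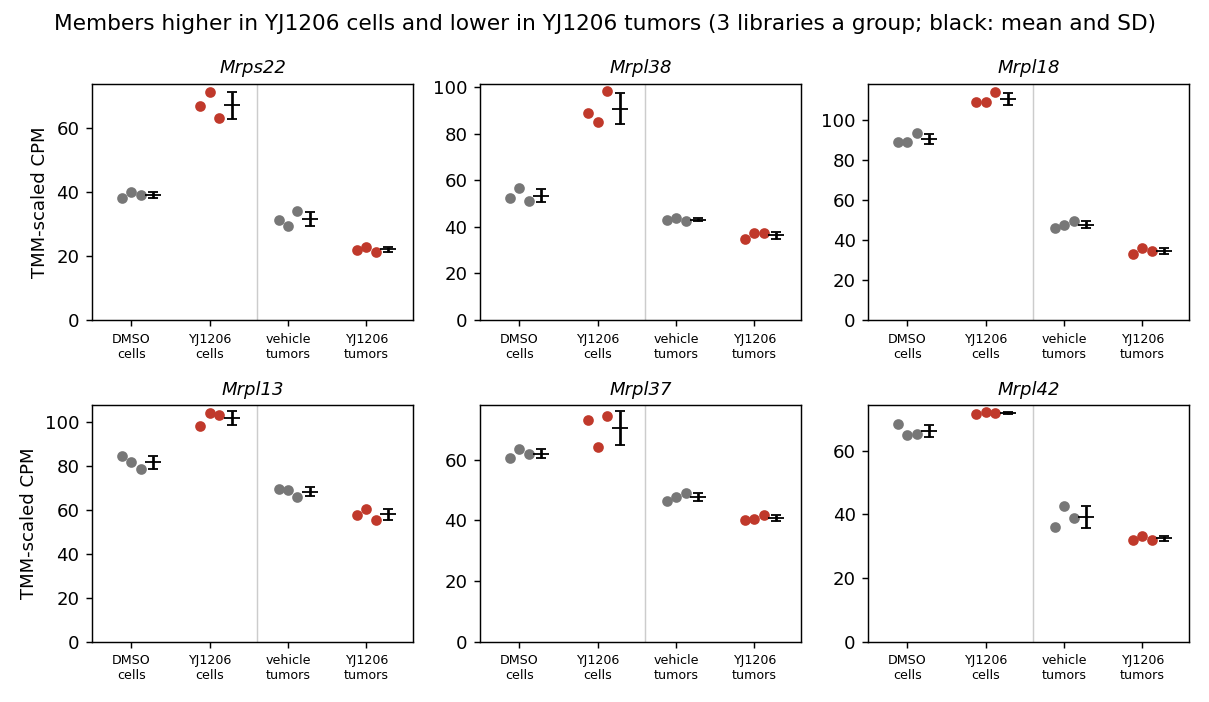
TMM-scaled CPM (y axis, from 0) in each library for the 6 members called higher in YJ1206 cells and lower in YJ1206 tumors. Points are libraries and black marks the mean and SD of 3. In cells the separation is wide for Mrps22 and Mrpl38 and narrow for Mrpl37 and Mrpl42. On the TPM scale the rise in cells is kept for Mrps22 and Mrpl38 and lost for the other 4. In tumors only Mrps22 and Mrpl18 of the 6 were called lower in every fit with 1 library left out.

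The difference between the experiments was tested directly as an interaction over all 12 libraries. The YJ1206 effect differed for 47 of the 78 members (60.3%, against 46.8% of 15423 tested genes). It was lower in tumors for 40 members and higher for 7, against 26% and 20.8% of all tested genes, with a member median of -0.30 against -0.01. Among Mrps genes 19 were lower in tumors and 2 higher, and among Mrpl genes 21 and 5. Mrpl35 (-1.36 ± 0.09 SE; edgeR adjusted p = 8.68e-08), Mrps6 (-1.32 ± 0.18), Mrps22 (-1.32 ± 0.10), Mrps23 (-1.29 ± 0.09), Mrpl2 (-1.22 ± 0.11) and Mrpl44 (-1.05 ± 0.13) had the largest differences. Of the members with the largest decreases in cells, Mrpl24 (0.96 ± 0.10), Mrpl55 (0.66 ± 0.23) and Mrps2 (0.52 ± 0.11) fell less in tumors. Mrpl17, which fell in cells and did not pass in tumors (-0.42; adjusted p = 0.0907), had a difference of 0.53 ± 0.18. The call of a difference held in 12 of 18 alternatives for Mrpl55 and in 10 of 18 for Mrpl17, with adjusted p-values of up to 0.0829 and 0.0776 when 1 library was left out. Mrpl12 fell in both with a difference of 0.02 that did not pass. On total counts the split was 25 lower and 17 higher, while all tested genes had a median of 0.20 and the members -0.08. Dose, time, route and host differ between the experiments as well as material. The labels also name poly(A) RNA for the cells and total RNA for the tumors. Both materials shared an estimate of the spread in this fit, though the coefficient of variation was 0.0322 in cells and 0.139 in tumors.

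**Figure D5:**
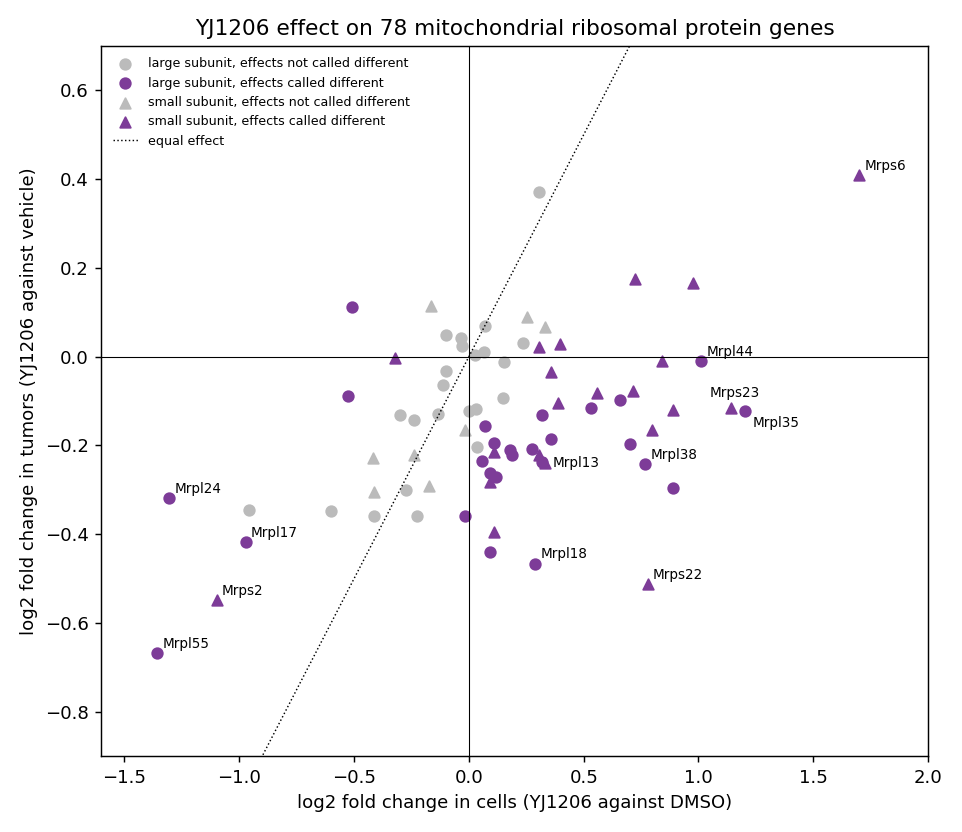
Log2 fold change of each member in cells (x axis) against tumors (y axis, on a narrower range). Circles are large-subunit and triangles small-subunit genes by symbol, and purple marks the 47 members whose effects were called different. Most members lie below the dotted line of equal effect on its right side, where a rise in cells meets little change or a fall in tumors, and on total counts 25 members were called lower in tumors and 17 higher.

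Other genes of mitochondrial translation were described from fixed lists. Of the 5 subunits with unrelated names, Ptcd3 (0.82), Gadd45gip1 (0.61) and Dap3 (0.22) rose in cells, and Aurkaip1 and Chchd1 did not pass. Ptcd3, a small-subunit protein with RNA-binding repeats, stood at 179, 167 and 169 CPM in DMSO cells and 315, 303 and 295 CPM after YJ1206, and fell in tumors (-0.43 ± 0.07; edgeR adjusted p = 0.0048), as did Mrps22. Of 26 assembly factors, 8 rose and 6 fell in cells (median 0.03), and 3 fell in tumors, shares below those of all tested genes (37.8% higher and 38.3% lower in cells, 14.9% lower in tumors). The largest called changes were those of Trub2 (-1.28) and Mpv17l2 (-1.05) in cells and of Tfb1m (-0.68), which methylates the small ribosomal RNA, and Rcc1l (-0.52) in tumors.

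Of 15 translation factors, 3 rose and 10 fell in cells (median -0.30), and 4 fell in tumors, where 38.3% and 14.9% of all tested genes were called lower. Mtif2, the initiation factor that brings the first tRNA, went from 37.9, 34.7 and 38.4 to 9.52, 11.8 and 10.2 CPM in cells (-1.81 ± 0.09 SE; edgeR adjusted p = 1.02e-16), and fell in tumors too (-0.41). Tufm, the elongation factor that delivers tRNAs, rose from 113, 105 and 102 to 228, 223 and 218 CPM in cells (1.07 ± 0.04; adjusted p = 2.35e-19). Of 20 genes for mitochondrial aminoacyl-tRNA synthetases and the glutamine amidotransferase, none was called higher by edgeR, 14 fell in cells (median -0.36) and 5 in tumors (median -0.15). These lists and the members thus had unlike shares of calls in cells on the same scale, and the difference was not tested.

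Among 11 genes for mitochondrial DNA upkeep and transcription, 5 rose and 3 fell in cells. Of all genes tested there, 37.8% were called higher and 38.3% lower. Twnk, the mitochondrial helicase whose 5' end overlaps that of Mrpl43 on the opposite strand, rose (0.97 ± 0.04 SE) while Mrpl43 fell (-0.27), and Tfb2m, a transcription factor of mitochondria, rose too (0.97). In tumors Tfb2m rose (0.29) and 3 fell, among them Tfam (-0.46), which packages mitochondrial DNA, and Mgme1 (-0.57). Of all genes tested in tumors, 11.9% were called higher and 14.9% lower. All 13 mitochondrially encoded mRNAs, the templates of the ribosome, rose in cells (median 0.82), with mt-Nd3 (1.26) and mt-Atp8 (1.22) first. Their summed level went from 31250 to 32648 CPM in DMSO cells to 53823 to 55641 CPM. In tumors 3 of the 13 rose, mt-Co2 (0.80), mt-Cytb (0.24) and mt-Nd5 (0.23), and the median was 0.19. Transcripts of the mitochondrial ribosomal RNAs were not analysed here.

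Known regulators of these genes also moved. Myc stood at 667, 709 and 690 CPM in DMSO cells and at 1872, 1953 and 1998 CPM after YJ1206 (1.495 ± 0.026 SE; edgeR adjusted p = 3.23e-26), and at 1257, 1436 and 1320 and then 896, 867 and 904 CPM in tumors (-0.59 ± 0.06; adjusted p = 0.00167). The 2 directions are opposite and the groups do not overlap in either. Whether reads of the human MYC transgene count toward Myc was not tested. Yy1 rose in cells (1.09) and did not pass in tumors (-0.11). Of the GABP subunits Gabpa (0.13) and Gabpb1 (0.27) rose and Gabpb2 fell (-1.91) in cells, and all 3 fell in tumors (-0.38, -0.31 and -0.51). Nrf1 did not pass in cells (0.04) and fell in tumors (-0.62 ± 0.08; adjusted p = 0.0031). Esrra fell in cells (-1.30), Pprc1 fell in both (-0.12 and -0.69), and Ppargc1b was at 0 counts in all cell libraries.

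Gene structure was read from GENCODE vM21. The members are short genes, with a median span of 7899.5 bases against 23349.5 for all protein-coding genes tested in cells, and a median of 5 exons against 9. In cells the 26 shortest members (789 to 4997 bases) held 8 risers and 12 fallers with a median of -0.07, and the 26 longest (9937 to 121773 bases) held 16 risers and 4 fallers with a median of 0.18. The rank correlation of span with log2 fold change was 0.32 over the 78 members and -0.06 over all tested protein-coding genes, as a description across genes. Other protein-coding genes in the span range of the shortest members had a median of 0.12, with 44.7% higher and 32.1% lower. Those in the range of the longest had a median of -0.01, with 39.5% higher and 38.9% lower. In tumors the correlation of members with span was 0.07. With the number of exons it was 0.13 in cells and -0.33 in tumors, against -0.09 and -0.07 over all tested protein-coding genes.

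Many members start next to another gene. For 33 of the 78 (42.3%, against 17.7% of all protein-coding genes tested in cells), a protein-coding gene on the opposite strand started within 1000 bases, and for 15 of them the 2 genes overlapped at their 5' ends. Mrps11 and Mrpl46 form such a pair with each other on chromosome 7, share 173 exon bases and rose together in cells (0.80 and 0.70). Among the 19 members called in cells with a called partner, 9 moved with the partner and 10 against it. The head-to-head pair of Mrpl43 and Twnk is one of the latter. The same count for head-to-head pairs of other genes is not given here. Exons of 33 members overlap those of another annotated gene, 28 of them on the opposite strand, and whether the counting used strand is not given in the sources used here. Among the 45 members without such an overlap, 22 rose and 13 fell in cells, and 10 fell and none was called higher by edgeR in tumors. Of all tested genes, 37.8% were called higher and 38.3% lower in cells, and 14.9% were called lower in tumors.

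For 2 of the 78 members in cells and 1 in tumors the mean length of the transcripts counted moved by more than 0.25 on the log2 scale, against 7.35% and 3.64% of all tested genes, so such shifts were no more frequent among the members. The ratio of the deposited count to the deposited TPM gives the mean transcript length that the authors' quantification used, and for Mrpl17 it was 1.96-fold longer in YJ1206 cells than in DMSO cells relative to the median gene, with no overlap of libraries. The annotated coding transcripts of Mrpl17 are 380 to 7300 bases long. Its TPM went from 133 to 29.1, a larger fall than that of its counts. Mrps17 had a ratio 1.22-fold longer in cells and Mrps23 one 0.841-fold that of vehicle in tumors, and all other members stayed within 0.25 on the log2 scale. Of the pseudogenes, Mrpl23-ps1 held 7 to 258 counts a library, up to 282% of the counts of Mrpl23, so the values of Mrpl23 (0.30 in cells and 0.37 in tumors, neither passing) are uncertain. Mrpl48-ps held up to 26.2% of the counts of Mrpl48, and the other 4 were at 0.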

How the data were processed

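RNA sequencing of Myc-CaP cells and subcutaneous Myc-CaP tumors gave 12 libraries in 4 groups of 3, which the study's methods describe as independent replicates. Labels name poly(A) RNA for the cells and total RNA for the tumors, and the protocol names depletion of ribosomal RNA. The authors deposited estimated counts per gene and TPM, made with kallisto (version not given in the sources used here) on GRCm38. The estimated counts were rounded, a change from the whole counts foreseen in the design. TPM were used as deposited by the authors. Each experiment was tested on its own 6 libraries with the quasi-likelihood test of edgeR 4.0.16 (R 4.3.3) after its default filter on low counts and TMM scaling, with Benjamini-Hochberg adjustment over all tested genes at 0.05. The difference between experiments was the interaction term of a fit over 12 libraries. CPM are counts per 1000000 with TMM-scaled library sizes. Alternatives were DESeq2 1.42.0, total counts, no filter, limma 3.58.1 on log2(TPM + 1) and log2(TPM + 0.1), a replicate block, each library left out, and libraries 1 and 2 alone. The edgeR, DESeq2 and limma tests and the edgeR interaction were run on simulated data. There a small set of genes changed, in equal numbers up and down, and limma was given CPM in place of TPM. In the real cells 76.1% of tested genes were called, so the simulation does not check the scaling. The other alternatives were not simulated. Members and gene lists were chosen with earlier results of these data known. Named genes were the 4 with the largest called change per direction and experiment at a mean of at least 5 CPM, up to 6 called in opposite directions, and the 4 of highest TPM. Other genes of the lists were named for their role after their values were seen. Deviations of same-numbered libraries from their group means had correlations from -0.026 to -0.0027 for the cells and from -0.021 to 0.0016 for the tumors. Differently numbered libraries reached 0.040 and 0.027. With 3 libraries a group, such values cannot decide whether the numbers pair the samples, and the main fits used no pairing. Library totals of 13936902 to 26928365 counts set the precision. Results for some genes of the lists are not reported here.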

Additional observations from a re-analysis of the deposited data

Results flagged for a closer look

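By the interaction term of edgeR (adjusted p under 0.05), 47 of the 78 members responded to YJ1206 differently in cells than in tumors. This was 60.3% of the members, against 46.8% of the 15423 tested genes. With TMM 40 members were lower in tumors and 7 higher, and on total counts 25 were lower and 17 higher. Among the named genes the log2 fold change in tumors minus that in cells was -1.32 for Mrps6, -1.36 for Mrpl35, -1.29 for Mrps23, -1.05 for Mrpl44, -1.32 for Mrps22, -1.04 for Mrpl38, -0.79 for Mrpl18, -0.59 for Mrpl13, -0.44 for Mrpl37, -0.42 for Mrpl42 and -0.37 for Mrpl52. It was 0.96 for Mrpl24, 0.66 for Mrpl55, 0.53 for Mrpl17, 0.52 for Mrps2 and 0.29 for Mrps21. For Mrpl33 the difference of -0.20 did not pass (adjusted p = 0.0783).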

How the results depend on the processing

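The count of called members in cells moved with scaling and little with the choice of libraries. On total counts 32 members were called lower in cells and the median was -0.079. On log2(TPM + 1) and log2(TPM + 0.1) 17 were called higher and 43 lower, with medians of -0.20 and -0.21, and in tumors the medians were -0.21 on both. With 1 library left out, 32 to 36 were called higher and 17 to 20 lower in cells. In tumors 5 to 18 were called lower and 0 to 1 higher, and with libraries 1 and 2 alone 0 were called lower by edgeR (9 at an unadjusted p under 0.05). With no filter 14 were called lower in tumors. The replicate block takes same-numbered libraries as pairs, and whether they are pairs was not settled. This block gave 35 higher and 20 lower in cells, 10 lower in tumors and 43 differences. Differences between experiments numbered 28 with libraries 1 and 2 alone and 41 to 52 with 1 library left out. Of the members called in cells, 4 changed sign on total counts and 11 on TPM. Among the named genes these were Mrpl37 (-0.00037), Mrpl42 (-0.069) and Mrpl33 (-0.031) on total counts. Among the named genes they were, on both TPM scales, Mrpl18 (-0.029 with 1 and -0.030 with 0.1 as pseudocount), Mrpl13 (-0.010), Mrpl37 (-0.13), Mrpl42 (-0.24) and Mrpl33 (-0.21), and with 1 library left out Mrpl52 ranged from -0.088 to 0.038. In tumors Mrps23 was at 0.065 and 0.066 on the TPM scales and Mrps21 at 0.024 with libraries 1 and 2 alone. With 1 library left out, tumor values ranged from -0.074 to 0.045 for Mrpl44, from -0.047 to 0.046 for Mrpl33 and from -0.026 to 0.032 for Mrps21, none of which passed the test. The difference for Mrpl33 was 0.023 on total counts. The cause of these changes was not tested. The tumor replicate spread, with a coefficient of variation of 0.139, limits what 3 libraries a group can show there.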
